A study of Mus musculus with 12 samples.

Results

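Cyclic AMP (cAMP) is broken down by phosphodiesterases, and 8 genes for these enzymes were examined in bone marrow-derived macrophages (BMDMs) together with *Adcy7*, a cAMP-producing adenylyl cyclase, and *Crem*, a transcription factor gene that cAMP switches on. The 10 genes are *Pde1b*, *Pde2a*, *Pde3b*, *Pde4a*, *Pde4b*, *Pde4d*, *Pde7a*, *Pde8a*, *Adcy7* and *Crem*. They were found by matching these symbols to the Ensembl identifiers of the table, and they are 10 of its 48526 genes. Each symbol matched 1 identifier.

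Adenylyl cyclases make cAMP from ATP when a hormone or prostaglandin binds a receptor coupled to the G protein Gs, and phosphodiesterases (PDEs) convert it to AMP. The PDE4, PDE7 and PDE8 enzymes act on cAMP, whereas PDE1, PDE2 and PDE3 enzymes also act on cyclic GMP. In macrophages, a rise in cAMP activates protein kinase A and the factor CREB and is known to restrain inflammatory cytokine production, and drugs that inhibit PDE4 raise it.

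RNA was sequenced from BMDMs of 3 female C57Bl/6J mice, grown from bone marrow to day 7 with 10 ng/mL mCSF, the macrophage growth factor. From each mouse, 1 culture had no addition and the others received, for 16 hr, 100 ng/mL Wnt3a (a protein that activates Wnt signaling), 100 pg/mL IL-4 (a cytokine of alternative macrophage activation), or both. All groups share the strain, the sex and mCSF, and no group carries a transgene or deletion by its labels. Each mouse is 1 animal per group, so that n = 3 throughout.

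For a given mouse, the columns labelled Wnt3a and Wnt3a+IL-4 did not hold separate counts. In every mouse, 0 of 48526 genes had a Wnt3a count outside 1 to 2 times the Wnt3a+IL-4 count, against 6681 to 8625 genes where the columns came from different mice. The difference (Wnt3a minus Wnt3a+IL-4) and the remainder (2 times Wnt3a+IL-4 minus Wnt3a) were therefore used, and both derive from Wnt3a-containing cultures. The labels do not say which of them was the culture with Wnt3a alone and which had Wnt3a and IL-4, so neither is named as such here. The 6 deposited and 6 derived sets of counts are called libraries. They held 13342492 to 17453377 counts each. Macrophage markers summed to between 43592 and 67676 CPM (counts relative to the library total, scaled by edgeR's TMM method) in all 12 libraries. *Lyz2* alone averaged 45363 CPM in untreated cells, 52985 in the difference and 46959 in the remainder, so the sum says little about the others. In the difference 3 of 7 were higher than in untreated cells, *Adgre1*, *Fcgr1* and *Itgam* (log2 fold changes 0.31, 1.07 and 1.07). In the remainder 2 of 7 were higher, *Fcgr1* and *Itgam* (0.60 and 0.90), and IL-4 changed 0. Of all tested genes, 23.2%, 25.3% and 3.4% were called in these comparisons, in either direction (adjusted p under 0.05, edgeR). Neutrophil markers summed to 25.6 to 56.7 CPM. Of the 5 tested, 3 were lower in the remainder than in untreated cells (0 in the other comparisons with untreated cells), and *Ly6g*, which defines neutrophils, had 3 counts or fewer in every library. Stromal markers summed to 5.74 to 29.9 CPM, and 1 of the 3 tested, *Pdgfrb*, was higher in the difference than in untreated cells (log2 fold change 1.00, SE 0.32, adjusted p = 0.036, edgeR) and 0 in the other comparisons with untreated cells. The other tested stromal markers went the other way in the difference without passing. These were *Col1a1* (-0.81, SE 0.53, adjusted p = 0.31, edgeR) and *Col1a2* (-1.43, SE 0.51, adjusted p = 0.060, edgeR). Lymphocyte markers and mast cell and basophil markers summed to at most 0.550 CPM. The part of these other cells in the results below was not tested. In such bulk samples, fewer cells of a type and less RNA per cell cannot be told apart.

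*Pde4b* and *Pde4a*, 2 genes of the same enzyme family, changed in opposite directions between the untreated cells and the Wnt3a-containing libraries. Promoter windows from RefSeq (GRCm38.p6, 250 bases before to 50 after a transcription start) were matched for 7 of the 10 genes, 20 windows in all. No window was available for *Pde3b* and *Pde7a*, and *Crem* was left out of the search. The motif counts below therefore say nothing about these genes. A stretch of 140 bases before a start of *Pde4b* (chr4:102421405-102421544, plus strand) and before a start of *Pde4a* (chr9:21183951-21184090, plus strand) is shown because each holds the core of the element that CREB binds. Both starts are internal to the gene, and in GENCODE 27 of the *Pde4b* bases and 0 of the *Pde4a* bases lie in an exon of the gene. The capitals mark the core TGACG, searched on both strands, which reads as its reverse complement in both:
Pde4b: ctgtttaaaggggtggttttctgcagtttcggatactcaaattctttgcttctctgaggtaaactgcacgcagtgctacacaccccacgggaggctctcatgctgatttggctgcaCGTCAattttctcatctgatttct
Pde4a: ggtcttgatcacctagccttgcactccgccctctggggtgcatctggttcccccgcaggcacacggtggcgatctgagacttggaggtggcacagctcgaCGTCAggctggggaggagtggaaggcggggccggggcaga
The core begins at position -34 from the start site in *Pde4b* and at position -50 in *Pde4a*. It was present in 5 of the 20 windows, 1 each of *Pde2a*, *Pde4a*, *Pde4b*, *Pde8a* and *Adcy7*, and in 20.8% of all 32851 mouse windows of that length. The full palindrome TGACGTCA, which contains the core, was in 0 of the 20 windows and in 1.79% of all windows. Searched likewise, the TCF/LEF motif CTTTGAT was in 0 of 20 (3.73% of all), the STAT motif TTCNNNGAA in 3 of 20 (8.30%) and the AP-1 motif TGANTCA in 1 of 20 (7.81%). The stretches were chosen for holding the core, and its share of the 20 windows was near that of all windows. Its presence in the gene that rose and in the gene that fell is therefore no result about them. Counts per gene do not show which start site was used.

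In untreated BMDMs the level of these genes, in CPM per kilobase of exon, spanned from *Adcy7* at the top to *Pde2a* near 0. Gene positions given below are from GENCODE on GRCm38. *Adcy7* stood at 51.2 ± 4.57 CPM per kilobase (SD, n = 3), and in each of the 12 libraries it held 84.6% to 90.5% of the reads per kilobase of all adenylyl cyclase genes. *Pde8a* followed at 13.9 ± 0.498 and *Pde1b* at 11.1 ± 3.29, and the ranges of this pair overlapped. *Pde4a* was at 4.86 ± 0.530 CPM per kilobase, below both and above the rest without overlap. *Pde4b* (2.30 ± 0.352), *Pde7a* (2.005 ± 0.289), *Crem* (1.56 ± 0.425) and *Pde3b* (1.13 ± 0.143) came next, and each overlapped its neighbour in this order. *Pde4d* was at 0.113 ± 0.00159 CPM per kilobase, on 21 to 25 counts.

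*Pde2a* (ENSMUSG00000110195, chromosome 7 from 101421691 to 101512827) encodes the cGMP-stimulated enzyme. It had 1, 0 and 0 counts in the untreated libraries of mouse 1, 2 and 3, 0 in every IL-4 library, 2, 1 and 0 in the difference and 0 in every remainder. It failed the filter of 10 counts in 3 libraries and was not tested, whereas the other 9 genes passed it. Of its exon bases, 64.3% also lie in *Gm45837* on the same strand, so that reads there may have been assigned to neither gene, and *Gm45837* had 0 to 4 counts. The rest of its exon bases lie in no other gene, and *Pde2a* had at most 2 counts in any library. The counts thus show little RNA from that part. They do not show that the gene is fully silent.

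**Figure D1:**
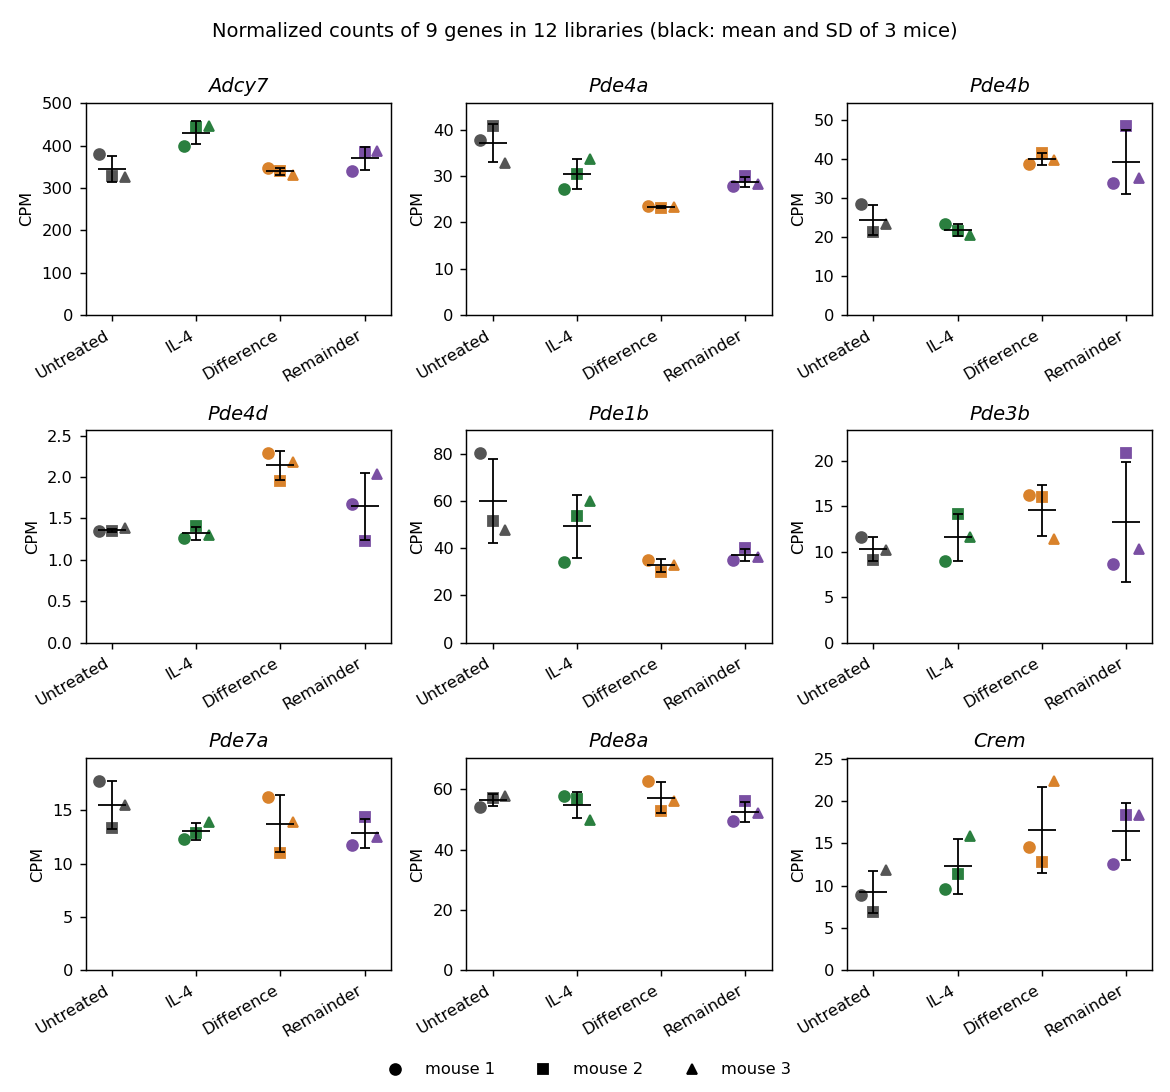
CPM of the 9 tested genes (y axis, from 0) in untreated, IL-4, difference and remainder libraries (x axis), with a symbol for each mouse and the mean and SD of 3 mice in black. *Pde4b* lies at 33.8 CPM or above in all 6 Wnt3a-containing libraries and at 28.4 or below in the other 6, and *Pde1b* of untreated mouse 1 stands alone at 80.2.

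IL-4 alone passed the test for 0 of the 9 genes, where 3.4% of all 12421 tested genes were called (edgeR's quasi-likelihood test, Benjamini-Hochberg adjusted p under 0.05). Before adjustment 2 of the 9 were under 0.05, *Adcy7* and *Pde4a*. The median log2 fold change of the 9 genes was -0.04, and that of all tested genes was -0.00302. *Adcy7* had the lowest p.

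*Adcy7* (ENSMUSG00000031659, chromosome 8 from 88272403 to 88329962), the cyclase that Gs activates in leukocytes, was at 380, 328 and 326 CPM in the untreated libraries of mouse 1, 2 and 3. With IL-4 it was at 399, 445 and 448 CPM. All 3 IL-4 libraries lay above all 3 untreated ones, although in mouse 1 the values were close. The log2 fold change was 0.32 (SE 0.08, adjusted p = 0.056, edgeR), short of the threshold. The call was made by DESeq2 (adjusted p = 0.015), with all genes of at least 1 count (edgeR, adjusted p = 0.044), with the columns as deposited (edgeR, 0.027), without mouse 1 (log2 fold change 0.45, adjusted p = 0.0095) and without untreated mouse 1 (0.40, adjusted p = 0.026). The fit of the columns as deposited treats columns that share reads as separate libraries, so its call is no separate support. In the Wnt3a-containing libraries *Adcy7* was at 348, 340 and 332 CPM in the difference and at 339, 384 and 387 in the remainder, with log2 fold changes against untreated of -0.02 and 0.10 that did not pass.

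*Pde4a* (ENSMUSG00000032177, chromosome 9 from 21165714 to 21213248), which encodes a cAMP-specific enzyme, was at 37.8, 40.9 and 32.9 CPM in untreated mouse 1, 2 and 3. It was at 27.2, 30.4 and 33.8 CPM with IL-4, lower in mouse 1 and 2 and level in mouse 3. This gave a log2 fold change of -0.29 (SE 0.10, adjusted p = 0.18, edgeR). The other genes with IL-4 had adjusted p of 0.50 (*Pde7a*) or more. Among them *Pde1b* was lower in mouse 1 and higher in mouse 2 and 3, and *Crem* was higher in all 3 mice, but with overlapping ranges.

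In the difference, 4 of the 9 genes passed the test against untreated cells, 2 lower and 2 higher, beside 23.2% of all tested genes (edgeR). In the remainder it was also 4 of 9, 2 lower and 2 higher, beside 25.3% of all genes (edgeR). Their median log2 fold changes were 0.02 and 0.10, against -0.01 and -0.02 for all tested genes. Both comparisons use the same untreated libraries, so that their values below are not independent. *Pde1b* and *Pde4a* were lower, and *Pde4b* and *Crem* were higher.

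**Figure D2:**
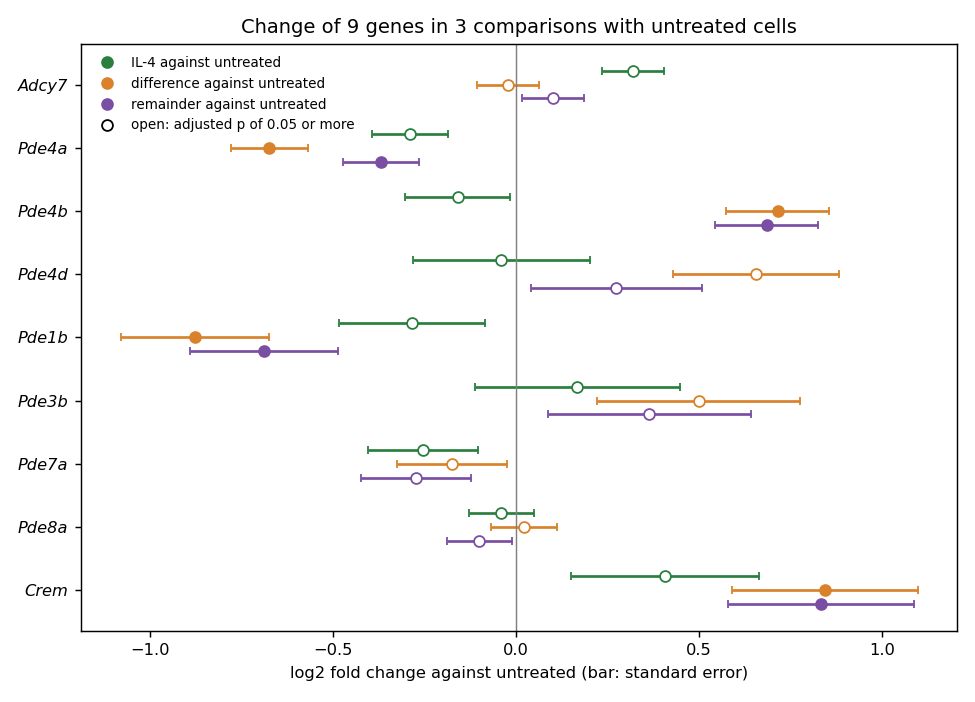
Log2 fold change against untreated cells (x axis, bars are standard errors from edgeR) for each tested gene (y axis) with IL-4, in the difference and in the remainder, where a filled circle has an adjusted p under 0.05. *Pde1b* and *Pde4a* lie left of 0 and *Pde4b* and *Crem* right of 0 with filled circles in both Wnt3a-containing groups, and every IL-4 circle is open.

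*Pde4b* (ENSMUSG00000028525, chromosome 4 from 102087543 to 102607259) encodes the cAMP-specific enzyme best known for limiting cAMP in activated macrophages and monocytes. Its level was 28.4, 21.2 and 23.3 CPM in untreated mouse 1, 2 and 3. The difference of these mice held 38.6, 41.6 and 39.6 CPM. The remainder held 33.8, 48.5 and 35.1 CPM, and neither group overlapped the untreated one. *Pde4b* was 1.64-fold higher in the difference (log2 fold change 0.71, SE 0.14, adjusted p = 0.0020, edgeR). In the remainder it was 1.61-fold higher (log2 fold change 0.68, SE 0.14, adjusted p = 0.0023, edgeR). Without mouse 3 the adjusted p was 0.066 in the difference and 0.051 in the remainder (edgeR), and without mouse 2 the log2 fold change of the remainder was 0.42.

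*Pde4a* was at 23.5, 23.1 and 23.3 CPM in the difference, against 32.9 to 40.9 in untreated cells. In the remainder it was at 27.9, 30.05 and 28.4 CPM. All 6 of these values lay below the lowest untreated one. The log2 fold change was -0.67 in the difference (SE 0.10, adjusted p = 0.00033, edgeR) and -0.37 in the remainder (SE 0.10, adjusted p = 0.018, edgeR). The call in the difference held in all 23 alternative analyses. That in the remainder was lost without any 1 of the mice (adjusted p 0.070 to 0.098, edgeR), and without the untreated library of mouse 1 (0.054) or 2 (0.070) or the remainder of mouse 1 (0.065) or 3 (0.061).

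The ratio of *Pde4b* to *Pde4a* counts needs no scaling between libraries, and was computed after these values were seen. It was 0.752, 0.519 and 0.708 in untreated mouse 1, 2 and 3 and 0.861, 0.704 and 0.609 with IL-4. It was 1.64, 1.80 and 1.70 in the difference and 1.21, 1.61 and 1.24 in the remainder. Every Wnt3a-containing library thus had more *Pde4b* than *Pde4a* counts, and every other library had fewer. This crossing depends on gene length, since *Pde4b* has 10560 exon bases and *Pde4a* 7655. Per kilobase, mean *Pde4b* and *Pde4a* were 2.30 and 4.86 CPM in untreated cells and 3.78 and 3.05 in the difference. In the remainder they were close, at 3.70 and 3.76. The summed level of *Pde4a*, *Pde4b* and *Pde4d* moved less, from 57.5 to 67.6 CPM in untreated cells, 51.8 to 55.6 with IL-4, 64.4 to 66.7 in the difference and 63.4 to 79.8 in the remainder. No test was made of the ratio or the sum, because their members were chosen for their direction.

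**Figure D3:**
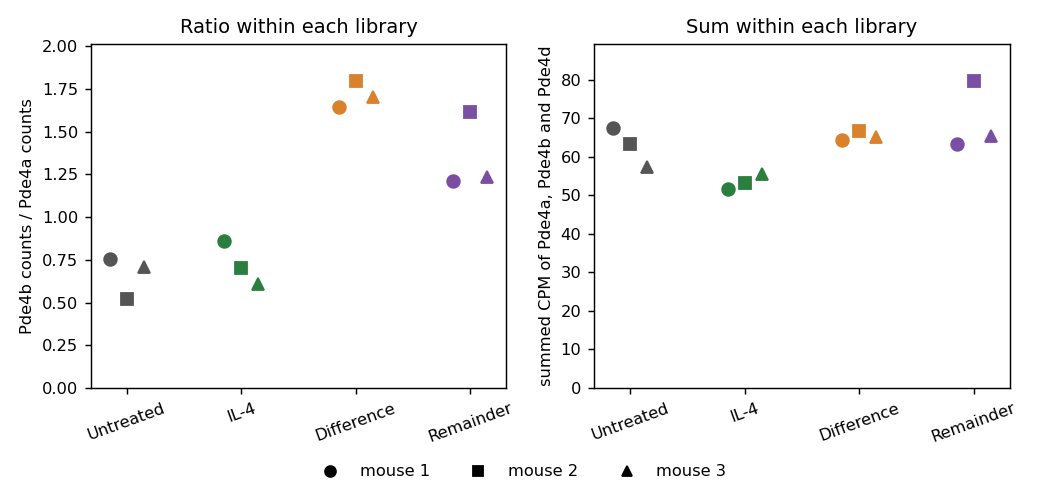
Left, counts of *Pde4b* divided by those of *Pde4a* in each library; right, the summed CPM of *Pde4a*, *Pde4b* and *Pde4d* (y axes from 0, a symbol per mouse, groups on the x axis). The ratio is at most 0.861 in untreated and IL-4 libraries and at least 1.21 in the difference and the remainder, while the sums of untreated, difference and remainder libraries overlap.

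*Pde4d* (ENSMUSG00000021699, chromosome 13 from 108449948 to 109953461), another PDE4 gene, was low in all groups. It had 25, 21 and 22 counts in untreated mouse 1, 2 and 3, 40, 32 and 30 in the difference and 27, 20 and 31 in the remainder. In CPM every difference library (1.95 to 2.29) lay above every untreated one (1.34 to 1.38), whereas the remainder overlapped. The log2 fold change in the difference was 0.65 (SE 0.23, adjusted p = 0.052, edgeR), which missed the threshold, and it passed with DESeq2's size factors (0.049), a filter of 1 CPM (0.049), the columns as deposited (0.043) and without the remainder of mouse 2 (0.036). The deposited Wnt3a column also holds reads of the remainder, so the 0.043 does not stand for the difference alone. In the remainder the log2 fold change was 0.27 (SE 0.23, adjusted p = 0.42, edgeR).

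*Pde1b* (ENSMUSG00000022489, chromosome 15 from 103503034 to 103530052), the calmodulin-dependent enzyme that acts on cAMP and cGMP, was at 80.2, 51.5 and 47.8 CPM in untreated mouse 1, 2 and 3. In the difference it was at 35.1, 29.7 and 33.0 CPM. In the remainder it was at 35.2, 40.1 and 36.3 CPM, again with no overlap with untreated cells. It fell to 0.545-fold in the difference (log2 fold change -0.88, SE 0.20, adjusted p = 0.0061, edgeR) and to 0.621-fold in the remainder (-0.69, SE 0.20, adjusted p = 0.022, edgeR). Untreated mouse 1 weighed on both values. Without that library the log2 fold change of the remainder was -0.41 (adjusted p = 0.13, edgeR), and without mouse 1 altogether it was -0.38 (adjusted p = 0.031), and the call was also lost without mouse 3 (0.083) or the remainder of mouse 1 (0.083) or 3 (0.069). In the difference the call held in all 23 alternatives, with log2 fold changes from -1.02 to -0.61.

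*Crem* (ENSMUSG00000063889) encodes activators and, from an internal promoter, the cAMP-inducible repressor ICER, which counts per gene do not separate. It was at 8.87, 6.88 and 11.9 CPM in untreated mouse 1, 2 and 3. The difference held 14.5, 12.8 and 22.4 CPM. The remainder held 12.5, 18.3 and 18.3 CPM. In each group all 3 mice were higher than the same mouse untreated and the ranges did not overlap. *Crem* was 1.79-fold higher in the difference (log2 fold change 0.84, SE 0.25, adjusted p = 0.027, edgeR) and 1.78-fold higher in the remainder (0.83, SE 0.25, adjusted p = 0.026, edgeR). Of its exon bases, 8.01% overlap *Gm6225* on the other strand, which had 0 to 6 counts. Scaling by total counts ended both *Crem* calls (adjusted p = 0.059 and 0.063, edgeR), as did leaving out mouse 2 (0.057 and 0.12), untreated mouse 1 (0.077 in both) or untreated mouse 2 (0.092 and 0.078). The call in the difference was also lost without mouse 1 (0.069), mouse 3 (0.061) or the difference of mouse 3 (log2 fold change 0.57, 0.13), and that in the remainder without the remainder of mouse 2 (0.066) or 3 (0.092).

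The remaining tested genes did not pass in any comparison. *Pde3b* (ENSMUSG00000030671, chromosome 7 from 114415281 to 114539251), the cGMP-inhibited enzyme, was at 11.7, 9.07 and 10.2 CPM in untreated mouse 1, 2 and 3, at 16.2, 16.1 and 11.3 in the difference and at 8.63, 20.8 and 10.3 in the remainder, where mouse 2 stood above the other two. *Pde7a* (ENSMUSG00000069094, chromosome 3 from 19223108 to 19311322), a cAMP-specific enzyme, was at 17.8, 13.3 and 15.5 CPM in untreated cells, and its group means elsewhere lay between 12.9 and 13.8. *Pde8a* (ENSMUSG00000025584, chromosome 7 from 81213596 to 81334533), a cAMP-specific enzyme of high affinity, had group means between 52.6 and 57.2 CPM, and its log2 fold changes against untreated cells were between -0.10 and 0.02 with standard errors of 0.09. These intervals leave room for small changes, and a missed threshold does not show that levels were equal.

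Of the 9 genes, 0 passed between the remainder and the difference, where 5.25% of all tested genes did (edgeR). *Pde4a* had the lowest p. It was higher in the remainder than in the difference in all 3 mice, without overlap, and had a log2 fold change of 0.30 (SE 0.11, adjusted p = 0.12, edgeR). *Pde4b* and *Crem* differed by -0.03 (SE 0.14) and -0.01 (SE 0.25) on the log2 scale.

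Set against IL-4-treated cells, which received no Wnt3a, 1 of the 9 genes passed in the remainder, beside 20.3% of all tested genes (edgeR). This was *Pde4b*, at 23.4, 21.4 and 20.6 CPM with IL-4, which was 1.79-fold higher in the remainder (log2 fold change 0.84, SE 0.14, adjusted p = 0.00062, edgeR). In the difference 4 of 9 passed, also beside 20.3% of all tested genes (edgeR). *Pde4b* was 1.83-fold higher there (log2 fold change 0.87, SE 0.14, adjusted p = 0.00040, edgeR). Both *Pde4b* calls held in all 23 alternatives.

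*Pde4a* was lower in the difference than with IL-4 (log2 fold change -0.38, SE 0.11, adjusted p = 0.018, edgeR), and so was *Adcy7* (-0.34, SE 0.08, adjusted p = 0.0095, edgeR), in all 3 mice and without overlap. In the remainder *Adcy7* was also below the IL-4 libraries in all 3 mice and without overlap, by -0.22 on the log2 scale (SE 0.08, adjusted p = 0.086, edgeR), which missed the threshold. *Pde4d*, at 21, 22 and 18 counts with IL-4, was higher in the difference (0.69, SE 0.23, adjusted p = 0.047, edgeR), but with the mouse as a block its adjusted p was 0.059 and with DESeq2 it was 0.15. *Pde1b* missed the threshold (-0.59, SE 0.20, adjusted p = 0.055, edgeR). The *Pde4a* call was lost without mouse 2 (0.11) or 3 (0.26), the IL-4 library of mouse 2 (0.056) or 3 (0.10) or the difference of mouse 2 (0.058) or 3 (0.053). The *Adcy7* call was lost without mouse 2 (0.11) or 3 (0.25) or the IL-4 library of mouse 2 (0.054) or 3 (0.060), and the *Pde4d* call remained in 2 of 15 such analyses, without the remainder of mouse 2 or of mouse 3.

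The study asked how Wnt3a and IL-4 act together, which the interaction addresses: the effect of IL-4 in Wnt3a-treated cells minus its effect in cells without Wnt3a. Because the labels leave the assignment unknown, both were fitted. Only the right assignment gives the interaction. The wrong one adds up the effects of IL-4 with and without Wnt3a and reverses the sign. With the remainder taken as Wnt3a+IL-4, 0 of 9 genes passed, beside 0.105% of all tested genes (edgeR). *Pde4a* had 0.59 (SE 0.15, adjusted p = 0.15, edgeR), and its adjusted p was 0.032 in DESeq2 and 0.038 with all genes of at least 1 count. With the difference taken as Wnt3a+IL-4, 1 of 9 passed, beside 7.33% of all tested genes (edgeR). This was *Adcy7* (-0.44, SE 0.12, adjusted p = 0.036, edgeR), which with the mouse as a block had an adjusted p of 0.072. For *Pde4b* the interaction was 0.13 (SE 0.20) under the first assignment and 0.19 (SE 0.20) under the other, and it passed in neither.

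Other genes of the pathway were taken from lists of the steps of cAMP signaling. Of all tested genes, 23.2% were called in the difference against untreated cells, 25.3% in the remainder and 3.4% with IL-4 (edgeR). Among other cyclic nucleotide phosphodiesterases, 6 of 16 were tested, of which 2 were higher and 1 lower in both Wnt3a-containing groups, and IL-4 changed 0. *Pde7b*, the paralog of *Pde7a*, had 178, 122 and 164 counts in untreated mouse 1, 2 and 3, 604, 397 and 226 in the difference and 335, 450 and 272 in the remainder. In CPM it did not overlap the untreated group, with log2 fold changes of 1.44 (SE 0.23, adjusted p = 0.00038, edgeR) and 1.26 (SE 0.23, adjusted p = 0.00098, edgeR). *Pde1c*, the paralog of *Pde1b*, had a log2 fold change of -1.75 in both. *Pde10a* was higher in the difference (3.04, SE 0.53), from 1 to 4 counts in untreated cells to 13 to 29.

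**Figure D4:**
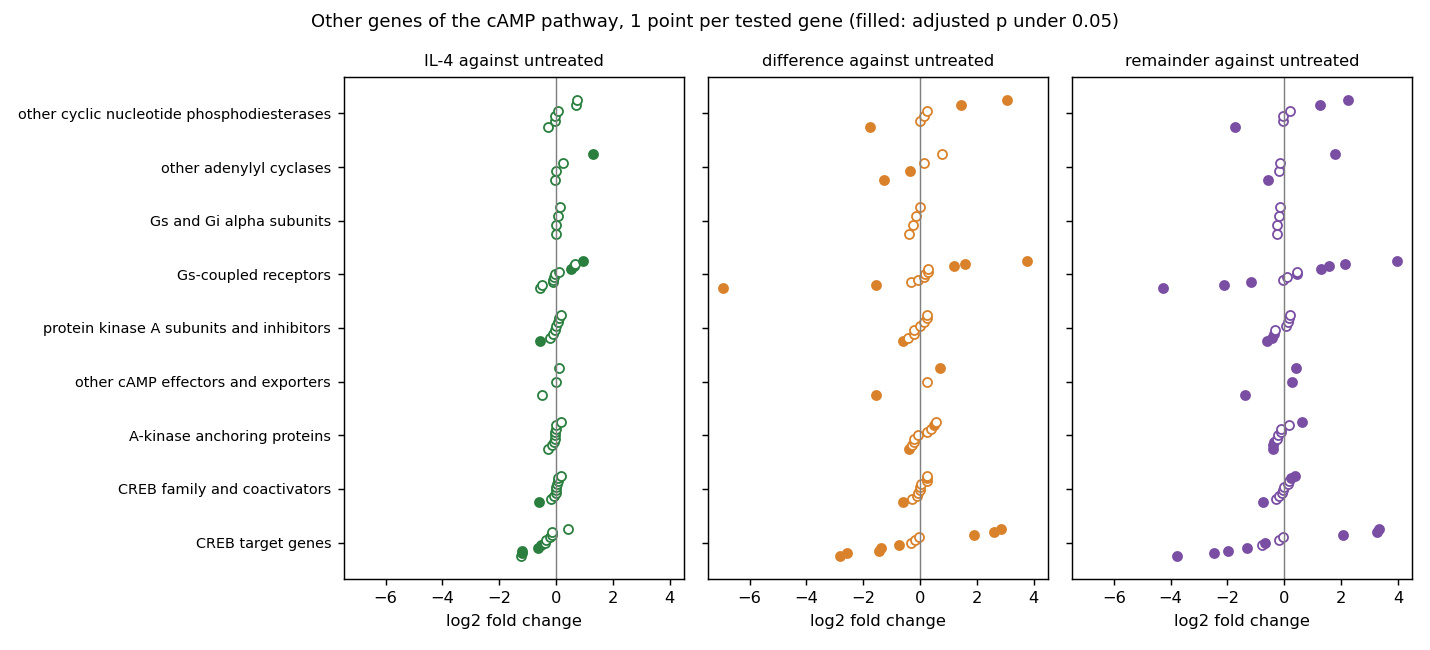
Log2 fold change against untreated cells (x axis) of each tested gene in 9 lists of the cAMP pathway (y axis) with IL-4, in the difference and in the remainder, where a filled point has an adjusted p under 0.05 in edgeR. The widest spreads are in Gs-coupled receptors and CREB target genes, which hold points on both sides of 0, and the 4 Gs and Gi alpha subunits hold no filled point.

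Of the other adenylyl cyclases, 4 of 9 were tested, of which 2 were lower in the difference, 1 was higher and 1 lower in the remainder and 1 was higher with IL-4. The shares called of all tested genes were 23.2%, 25.3% and 3.4% in that order. *Adcy3* was lower in the difference (log2 fold change -1.26, SE 0.18, adjusted p = 0.00018, edgeR), where it fell from 10.1 ± 2.21 to 4.22 ± 0.699 CPM (SD, n = 3). *Adcy6*, on 5 to 9 untreated counts, rose in the remainder to 28, 26 and 15 counts (1.77, SE 0.32, adjusted p = 0.00080, edgeR). With IL-4 its log2 fold change was 1.30 (adjusted p = 0.048, edgeR), a call that 19 of 23 alternatives did not make, among them the mouse as a block (0.061). The 4 tested alpha subunits of Gs and Gi did not pass against untreated cells with IL-4, in the difference or in the remainder. They also did not pass between the remainder and the difference, where 5.25% of all tested genes did.

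Among the receptors coupled to Gs, 11 of 15 were tested. In the difference 3 were higher and 2 lower than in untreated cells, in the remainder 5 were higher and 3 lower, and with IL-4 3 were higher. The shares called of all tested genes were 23.2%, 25.3% and 3.4% in that order. *Adora2a*, an adenosine receptor, had 9, 2 and 8 counts in untreated mouse 1, 2 and 3, 77, 94 and 77 in the difference and 98, 111 and 78 in the remainder. Its log2 fold changes were 3.77 (SE 0.30, adjusted p = 7.5e-07, edgeR) and 3.97 (SE 0.30, adjusted p = 3.3e-07, edgeR). *Hrh2*, the histamine H2 receptor, was also higher, by 1.58 and 2.12 on the log2 scale. By the counts above, genes of this list passed in both directions in the difference and in the remainder.

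Downstream of cAMP, protein kinase A subunits and inhibitors had 8 of 9 genes tested, of which 1 was lower in the difference, 3 in the remainder and 1 with IL-4. For this list and the next ones, the shares called of all tested genes were 23.2%, 25.3% and 3.4% in that order. Of the 9 tested A-kinase anchoring proteins, 1 was higher and 1 lower in the difference, 1 was higher and 3 lower in the remainder, and IL-4 changed 0. Of the other effectors and exporters of cAMP, 3 of 7 were tested, of which 1 was higher and 1 lower in the difference, 2 were higher and 1 lower in the remainder, and IL-4 changed 0. *Rapgef3*, the cAMP-activated exchange factor Epac1, fell from 7.73 ± 1.24 CPM (SD, n = 3) to 2.63 ± 0.554 in the difference (log2 fold change -1.56, SE 0.20, adjusted p = 5.0e-05, edgeR) and 2.97 ± 0.341 in the remainder (-1.38, SE 0.19, adjusted p = 0.00011, edgeR). *Abcc4*, a transporter that exports cAMP, was higher by 0.70 in the difference (SE 0.10, adjusted p = 0.00014, edgeR). The 10 genes of the CREB family and its coactivators were all tested, of which 1 was higher and 1 lower in the difference, 2 were higher and 1 lower in the remainder and 1 was lower with IL-4. *Sik1*, a kinase that CREB induces and that restrains its coactivators, fell from 629, 572 and 580 counts in untreated mouse 1, 2 and 3 to 344, 423 and 334 in the difference and 323, 357 and 329 in the remainder, with log2 fold changes of -0.62 and -0.75. With IL-4 alone *Sik1* had 354, 376 and 365 counts and was also lower (-0.58, SE 0.11, adjusted p = 0.0098, edgeR), a call lost without mouse 2 (0.068) or 3 (0.20) or the IL-4 library of mouse 1 (0.062).

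CREB target genes had 11 of 12 tested. In each Wnt3a-containing group 3 were higher and 5 lower, and with IL-4 0 were higher and 4 lower. Of all tested genes, 23.2% were called in the difference, 25.3% in the remainder and 3.4% with IL-4. The list was chosen with earlier results of these data known, and its larger share was not tested. *Nr4a1*, an orphan nuclear receptor, had 223, 153 and 189 counts in untreated mouse 1, 2 and 3, 18, 43 and 28 in the difference and 25, 34 and 36 in the remainder, with log2 fold changes of -2.57 (SE 0.26, adjusted p = 6.3e-06, edgeR) and -2.49 (SE 0.26, adjusted p = 6.8e-06, edgeR). With IL-4 alone *Nr4a1* had 67, 90 and 68 counts and was also lower (-1.20, SE 0.23, adjusted p = 0.0092, edgeR), a call lost without mouse 3 (0.31), the untreated library of mouse 3 (0.053) or the IL-4 library of mouse 1 (0.061). *Ptgs2*, the cyclooxygenase of inducible prostaglandin synthesis, was higher by 2.85 and 3.26. *Thbs1*, the secreted matrix protein thrombospondin, was lower with IL-4 (-1.21, SE 0.19, adjusted p = 0.0021, edgeR) and higher in the difference (2.597, SE 0.19, adjusted p = 3.9e-07, edgeR). The direction of these target genes was therefore mixed in the groups where *Crem* was higher.

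Across the 12 libraries, the tested gene whose log2 CPM followed each member most closely was *Ms4a6b* for *Pde4b* (Pearson r = 0.97), *Srsf2* for *Pde1b* (0.96), *Acin1* for *Pde4a* (0.94) and *Gtf3c6* for *Crem* (0.94). It was *Napb* for *Pde7a* (0.94), *Atl3* for *Pde3b* (0.92), *Tuba4a* for *Pde4d* (0.91), *Igf1os* for *Adcy7* (0.90) and *Trmt10b* for *Pde8a* (0.88). Each is the highest of 12420 genes compared, the libraries share 4 groups and 3 mice, and the values describe these libraries only.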

How the data were processed

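Single-read RNA-seq was made from BMDMs of 3 mice in 4 groups. After trimming (Trimmomatic 0.36) and alignment by STAR 2.6.0 to the mm10 genome, the authors deposited raw counts per gene from HTSeq 0.11.1. The strand setting is not given in the sources used here. The table lists Ensembl identifiers, 48058 of which had a symbol, and held 0 columns beyond those used.

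Because a mouse's columns for Wnt3a and for Wnt3a+IL-4 share reads, their difference and remainder were tested instead. These counts of 12 libraries (13342492 to 17453377 each) were analysed with edgeR 4.0.16 in R 4.3.3 (quasi-likelihood test, TMM, 4 groups in 1 fit, no mouse term). A gene needed 10 counts or more in 3 or more libraries, which left 12421 genes, with Benjamini-Hochberg adjustment over all of them and a threshold of 0.05. Standard errors were derived from the fold change and F statistic. The code was tested on simulated data. CPM are TMM-scaled, and a level between genes is per kilobase of GENCODE M21 exon. Similarity of genes is Pearson's r of log2 CPM (prior count 2).

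The 10 genes and all lists were chosen with earlier results of these data known. Named genes were taken from the 10 genes, the gene most like each, and, per list and comparison, the called genes (at least 1 CPM in the higher group) with the 2 largest rises and 2 largest falls. Not all genes that this rule selects are reported here. Alternatives were DESeq2 1.42.0 (the authors used 1.24.0), DESeq2's size factors, total count scaling, all genes with at least 1 count, 1 CPM in 3 libraries, only the groups compared, the columns as deposited, a replicate block for the mouse, and the omission of single mice or libraries. With the columns as deposited, Wnt3a stood in for the difference and Wnt3a+IL-4 for the remainder, so shared reads shrink contrasts between them. That fit also treats columns that share reads as separate libraries. It called 708 of 13368 genes for IL-4 against untreated cells, where the main fit called 422 of 12421. The labels pair samples by mouse. Deviations from group means correlated between -0.42 and 0.45 in the 18 same-mouse pairs, 6 of them over 0.1. P-values of the main fit, which has no mouse term, rest on the spread of libraries within groups, moderated by edgeR across genes. With 1 culture per mouse and group, spread between mice and between cultures cannot be told apart.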

Additional observations from a re-analysis of the deposited data

Results flagged for a closer look

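*Adcy7* was flagged because the effect of IL-4 on it differed between cells with and without Wnt3a by the interaction test, where the difference is taken as the Wnt3a+IL-4 culture. The interaction was -0.44 on the log2 scale (SE 0.12, adjusted p = 0.036, edgeR's quasi-likelihood test). The mean was 345 ± 30.8 CPM in untreated cells and 430 ± 27.4 with IL-4 alone (SD, n = 3), which did not pass the test, and the difference stood at 340 ± 8.26 CPM beside 370 ± 26.7 in the remainder. Under the other assignment the interaction was -0.20 (SE 0.12, adjusted p = 0.53, edgeR). If that other assignment is the right one, the -0.44 is no interaction. It then adds up the effects of IL-4 with and without Wnt3a, with the sign reversed. Of all tested genes, 7.33% passed with the difference taken as Wnt3a+IL-4 and 0.105% with the remainder so taken (edgeR). The adjusted p of the flagged interaction was 0.072 with the mouse as a block (edgeR), 0.16 with total count scaling and 0.17 with the columns as deposited. The deposited columns share reads, which shrinks contrasts between them, so the last value cannot decide whether this result holds. With them, 0 of 13368 tested genes were called between the Wnt3a and Wnt3a+IL-4 columns (edgeR). When single mice or libraries were left out, the *Adcy7* interaction passed in 4 of 15 analyses, those without mouse 1 or without its untreated, IL-4 or remainder library, and over all 15 the log2 value ran from -0.65 to -0.31 and the adjusted p from 0.0040 to 0.63.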

How the results depend on the processing

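Of the 21 values of the 10 genes with an unadjusted p under 0.05, 0 changed direction in any of the 23 alternatives. They were picked for a small p in the main fit, and the alternatives reuse its libraries. A constant direction was therefore likely beforehand and is no separate support. Of the other 51 values, 23 changed sign and 6 were called in some alternative. The number of the 10 genes called with IL-4 against untreated cells, 0 as reported, was 1 with DESeq2, with all genes of at least 1 count and with the columns as deposited (*Adcy7* in each), and 0 to 1 with a mouse or library left out. Of all tested genes, DESeq2 called 559 of 12421, the filter of 1 count 812 of 23413 and the columns as deposited 708 of 13368. With a mouse or library left out it was 77 of 12233 to 532 of 12364. With a mouse or library left out, the counts ran from 2 to 5 for the difference and from 1 to 4 for the remainder against untreated cells, and from 1 to 4 for the difference against IL-4. Calls over all tested genes moved too, from 1220 of 12233 to 3188 of 12364 for the difference against untreated cells. For the remainder they ran from 1375 of 12233 to 3807 of 12185, and for the difference against IL-4 from 1208 of 12233 to 2805 of 12364. For the remainder against IL-4, 1 as reported, the count was 3 with all genes of at least 1 count, 2 with the columns as deposited and 1 to 2 with a mouse or library left out. Of all tested genes, 2935 of 23413 and 3211 of 13368 were called in the first of these settings. With a mouse or library left out it was 1043 of 12233 to 3052 of 12364. The interaction with the remainder as Wnt3a+IL-4 gave 1 call (*Pde4a*) with DESeq2 and with all genes of at least 1 count, against 0. Over all tested genes these analyses called 165 of 12421 and 575 of 23413. The interaction with the difference as Wnt3a+IL-4 gave 0 calls, against 1, under total count scaling, the columns as deposited and the replicate block, and 0 to 1 with a mouse or library left out. Over all tested genes these settings called 939 of 12421, 311 of 13368 and 854 of 12421, and 265 of 12233 to 1459 of 12185. Of these settings, the columns as deposited cannot decide on an interaction, because their shared reads shrink it. Of the 10 genes the replicate block also ended the *Pde4d* call against IL-4, and it changed no other call of theirs. Of 56 values of 29 genes named by the rule in the pathway lists, 29 were called in every alternative that could test them. Low counts limit *Pde2a*, *Pde4d*, *Adcy6* and *Pde10a*.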
